A study of Mus musculus with 2 samples.

Results

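The clustered histone genes are the canonical histone genes that lie side by side in the Hist1 to Hist4 gene clusters. They were taken as every listed gene whose symbol begins with Hist1h, Hist2h, Hist3h or Hist4h, pseudogenes left out, which gave 67 of 32285 genes. Of these, 54 lie on chromosome 13, 10 on chromosome 3, 2 on chromosome 11 and 1 on chromosome 6 (GRCm38, GENCODE vM21). In kept cells, 44 members had at least 1000 UMIs (unique molecular identifiers, each a counted mRNA molecule) over both libraries, 16 had at least 100 but fewer than 1000, 5 had 1 to 99, and Hist1h2ba and Hist1h2aa had 0.

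Canonical histones are made in bulk while DNA is copied, and most of their mRNAs do not end in a poly(A) tail. They end in a short stem-loop that is bound by SLBP, the stem-loop binding protein, and they decay when replication stops. Some of the same genes can also use a poly(A) signal further downstream, and such transcripts are known from cells that have left the cell cycle, where replacement histones such as H3.3 and H2A.Z take over much of the supply. Neutrophil development offers both situations, since proneutrophils (ProNeu) and preneutrophils (PreNeu) divide, whereas immature (imNeu) and mature neutrophils (mNeu) do not.

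The data are 1 control (Ctrl) and 1 Map4k4-cKO (cKO) library of bone marrow from mice aged 13 to 14 weeks, prepared with a droplet method that counts the 3′ ends of polyadenylated mRNA. In each library, c-Kit+ progenitors enriched on magnetic beads and red-cell-lysed whole marrow were combined in a ratio of 2 parts to 3 parts. The methods give cKO as Mx1-Cre Map4k4 f/f mice on a C57BL/6 background, in which poly I:C injected some weeks earlier induced Cre and deletion of the floxed kinase gene, and give Ctrl as Mx1-Cre littermates written Map4k4 -/-, a notation they do not explain. Mx1-Cre responds to interferon and is not limited to blood cells, whether the control mice also received poly I:C is not stated, and neither is the number of mice behind a library. With 1 library per condition no difference between conditions could be tested: values are given with 95% exact intervals that cover counting error only.

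The Ctrl library held 9965 kept cells with a median of 4111 UMIs and the cKO library 6718 cells with a median of 6243.5 UMIs. Map4k4 itself stood at 72.6 CPM (UMIs per 1000000 UMIs) in Ctrl and 64.3 CPM in cKO. Such 3′ counts do not check the deletion, because a transcript that lacks internal exons may still be counted at its end, and where the floxed exons lie is not given in the sources used here. The barcode lists shared 3010 entries, 29.5% of Ctrl and 43.8% of cKO barcodes, and results were also computed without those cells. Each cell was put in the class whose marker genes were highest in it, hence the suffix "-like". Every class discussed here had at least as many of its own markers among its 10 leading genes as markers of any other class. Marker lists of neighbouring neutrophil classes overlap. For imNeu-like cells the tie of 1 to 1 against mNeu is a single gene, Mmp8, which is on both lists. For PreNeu-like cells 3 markers were among the leading genes, of which Camp and Ngp are also imNeu markers. A cell was called cycling when 31 S-phase and 39 G2/M genes, none of them a histone gene, made up at least 30 of every 10000 UMIs.

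The 3′ ends that mark these mRNAs are shown first, since the groups of members described below are compared by them. In the annotated sequence that follows the stop codon, a perfect stem of 6 bases beginning with GG, around a loop of 4 bases, was present within 100 bases in 43 of the 48 members with at least 60 annotated bases there, against 0.309% of 42134 other coding transcripts. The stem is in capitals in 4 members on chromosome 13, namely Hist1h2ap (chr13:21833026-21833507, minus strand), the member with most UMIs, Hist1h3c (chr13:23744973-23745602, minus strand), Hist1h4i (chr13:22040636-22041362, minus strand) and Hist1h1c (chr13:23738808-23740367, plus strand), which returns below for its UMIs in mature neutrophils.
Hist1h2ap: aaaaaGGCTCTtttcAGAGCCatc
Hist1h3c: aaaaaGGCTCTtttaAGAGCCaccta
Hist1h4i: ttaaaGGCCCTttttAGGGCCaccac
Hist1h1c: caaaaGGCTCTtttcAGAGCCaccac

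A poly(A) signal, AATAAA or ATTAAA, lay within the last 40 bases of the longest annotated coding transcript in 17 of the 67 members and in 48.7% of 58725 other coding transcripts. The signal is in capitals below in 4 of the members that are later called also present in mature neutrophils. That call sets their level against that in cycling neutrophil progenitors and precursors, and not against other non-dividing classes. Of the 4, 2 lie on other chromosomes, Hist3h2a (chr11:58954685-58956830, plus strand) and Hist2h3c1 (chr3:96246685-96248509, plus strand). All 4 also have the stem-loop, so the annotation gives both kinds of end for them.
Hist1h1c: ttctAATAAAaagcgtttagttttca
Hist1h4i: ttacATTAAAagtattctatgctaa
Hist3h2a: gcccAATAAAataagagtacgtgtat
Hist2h3c1: tcccAATAAAaatttaacacactgct

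Clustered histone UMIs followed cell division. They made up 0.582% of all UMIs in Ctrl and 0.439% in cKO kept cells, whose mix of classes differed between the libraries. Among classes with at least 50 cells in each library the shares were highest in cycling cells and lowest in non-cycling neutrophils. Cycling monocyte lineage-like cells had a share of 1.14% in the Ctrl library and 0.979% in the cKO library, cycling PreNeu-like cells 0.688% and 0.802%, and cycling ProNeu-like cells 0.589% and 0.548%. Non-cycling imNeu-like cells had 0.0637% and 0.0526%. Non-cycling mNeu-like cells stood higher again. Their share was 0.0974% in Ctrl and 0.0717% in cKO, above that of imNeu-like cells in both libraries.

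**Figure D1:**
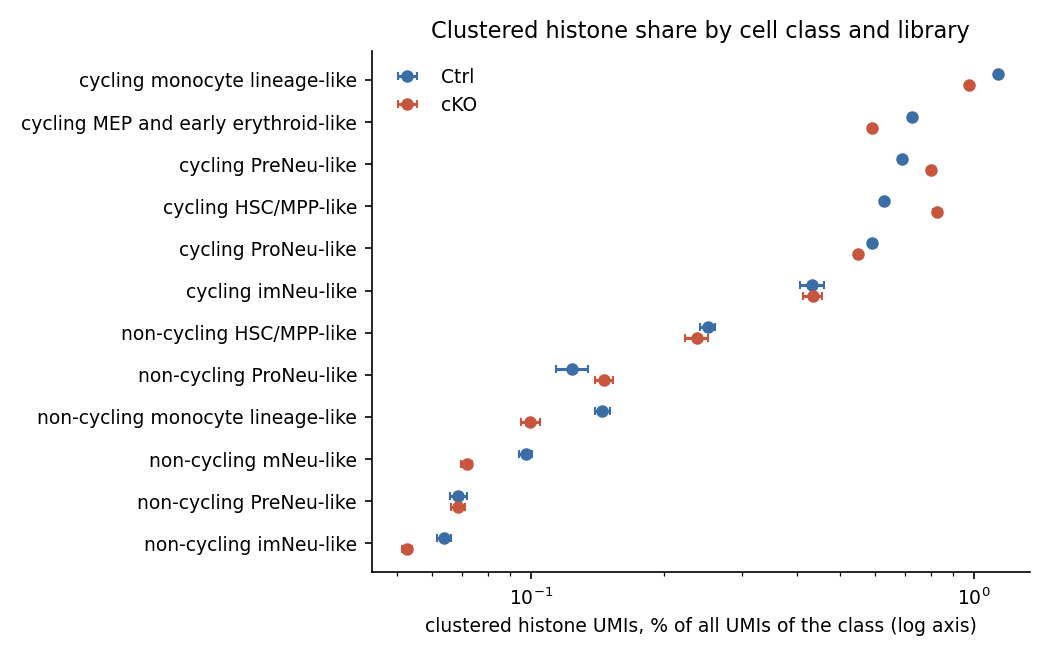
Share of all UMIs of a cell class that came from the 67 clustered histone genes (log axis), in the Ctrl (blue) and cKO (red) library, for classes with at least 50 cells in each; bars are 95% exact binomial intervals for counting error, often smaller than the point. Cycling classes lie between 0.432% and 1.14%, and non-cycling neutrophil classes reach as low as 0.0526%.

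A few genes carried most of this signal. The 12 members with most UMIs held 76.7% of all clustered histone UMIs, and Hist1h2ap, an H2A gene, alone held 22.0%, with 87505 UMIs in Ctrl and 65883 in cKO. The linker histone genes Hist1h1b and Hist1h1e followed with 9.84% and 8.85%, then the H4 gene Hist1h4d with 7.57%, the H2A gene Hist1h2ae with 7.51% and the H3 gene Hist1h3c with 4.83%. The others of the 12 were Hist1h1c, Hist1h2ab, Hist2h2ac, Hist1h1d, Hist1h4h and Hist1h3f. These are counts of captured 3′ ends, not of all histone mRNA, because molecules that end in the stem-loop have no tail for the capture primer.

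Assignment between members is limited by their likeness. Translated from the annotation, 44 members encode a protein identical to that of another member, among them 13 H4 genes with the same product and 9 H2A genes with the same product. The median member shared 44.5% of its stretches of 60 bases with a transcript of another gene. For Hist1h2ap the figure was 92.9%, for Hist2h3c1 100%, for Hist1h3c 42.6%, for Hist1h2bc 28.1%, for Hist1h1c 7.59% and for Hist1h1b 0%. UMIs of Hist1h2be and Hist1h1e, whose exons overlap on the same strand, and those of Hist3h2a, which overlaps Trim17, may likewise be split between the pair.

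Members were next separated by whether they were also present in mature neutrophils. A member was called also present when, in Ctrl, its CPM in non-cycling mNeu-like cells was at least 0.25 of its CPM in cycling neutrophil progenitors and precursors (ProNeu-like, PreNeu-like and imNeu-like together) and its lower limit exceeded what shared free RNA would give. The free-RNA level was read from the highest of 4 progenitor granule genes, Elane, Mpo, Prtn3 and Ctsg, whose CPM in these mNeu-like cells was 0.103 to 0.149 of that over all cells in Ctrl and 0.0387 to 0.0492 in cKO. By this description 11 members were also present, 38 were at or below the free-RNA level and are called cycling only, 11 lay between, and 7 had fewer than 20 UMIs in these cells. The CPM ratio alone reached 0.25 for 12 of 60 members in Ctrl and for 12 of 61 in cKO, where it was reached by 73% and 64.5% of all genes. The share of members that reached it was thus below that of all genes in both libraries. The name cycling only refers to mature neutrophils and not to other non-dividing cells. In non-cycling haematopoietic stem and multipotent progenitor-like cells of Ctrl the 38 members summed to 1377 CPM, against 5029 CPM in cycling ones.

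The class set on Ctrl was then read in cKO, which had not been used for it. All 11 members also present in Ctrl met the rule in cKO. Of the 38 cycling-only members, 28 were again at or below the free-RNA level and 10 lay between. The free-RNA limit was lower in cKO, at 0.0492 of the level over all cells against 0.149 in Ctrl. The second condition was thus easier to meet in cKO, and the 2 readings are not like for like. Hist1h2ap, 1 of the 10, fell from 0.138 of its level over all cells in Ctrl to 0.0844 in cKO. Around the limit of 0.25, the lowest member inside was Hist1h4m, with a ratio of 0.314, and the highest outside was Hist1h4b with 0.186, while Hist2h2be reached 0.365 on 6 UMIs and failed the second condition.

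Hist1h2bc, an H2B gene (chr13:23684199-23692908, plus strand), stood out among abundant members because it was higher in mature neutrophils than in dividing precursors. Its level in cycling neutrophil progenitors and precursors was 46.4 CPM in Ctrl and 42.2 CPM in cKO, and in non-cycling mNeu-like cells it was 102 CPM in Ctrl and 130.2 CPM in cKO. Hist1h1c, which encodes the linker histone H1.2, was near parity, with 219 and 219 CPM in Ctrl and 186 and 157 CPM in cKO. The H4 gene Hist1h4i gave 66.6 and 53.3 CPM in Ctrl and 85.5 and 39.0 CPM in cKO. The H2A gene Hist3h2a and the H3 genes Hist2h3c1 and Hist2h3c2 were also near or above parity in Ctrl, but on 17, 17 and 6 UMIs in mNeu-like cells. The remaining 5 members, Hist2h2aa1, Hist1h2be, Hist1h2br, Hist1h4n and Hist1h4m, ranged from 0.314 to 0.532 in Ctrl.

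At the other end, Hist1h2ag, Hist1h4k and Hist1h2bl had 0 UMIs in the 3623601 UMIs of these mNeu-like cells in Ctrl, which allows up to 0.828 CPM at 3 counts and up to 1.02 CPM by the exact interval used for the other levels. Hist1h2bn, Hist2h2bb, Hist1h2af, Hist1h2ai and Hist1h2bh had ratios of 0.017 to 0.028 on 1 to 5 UMIs. Among abundant members, Hist1h1b, which encodes the linker histone H1.5 of dividing cells, was at 566 CPM in cycling and 37.3 CPM in mNeu-like cells in Ctrl, and at 526 and 11.0 CPM in cKO. Hist1h3c gave 351 and 20.7 CPM in Ctrl and 200.2 and 5.24 CPM in cKO. Hist1h1e lay between, at 548 and 93.3 CPM in Ctrl.

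**Figure D2:**
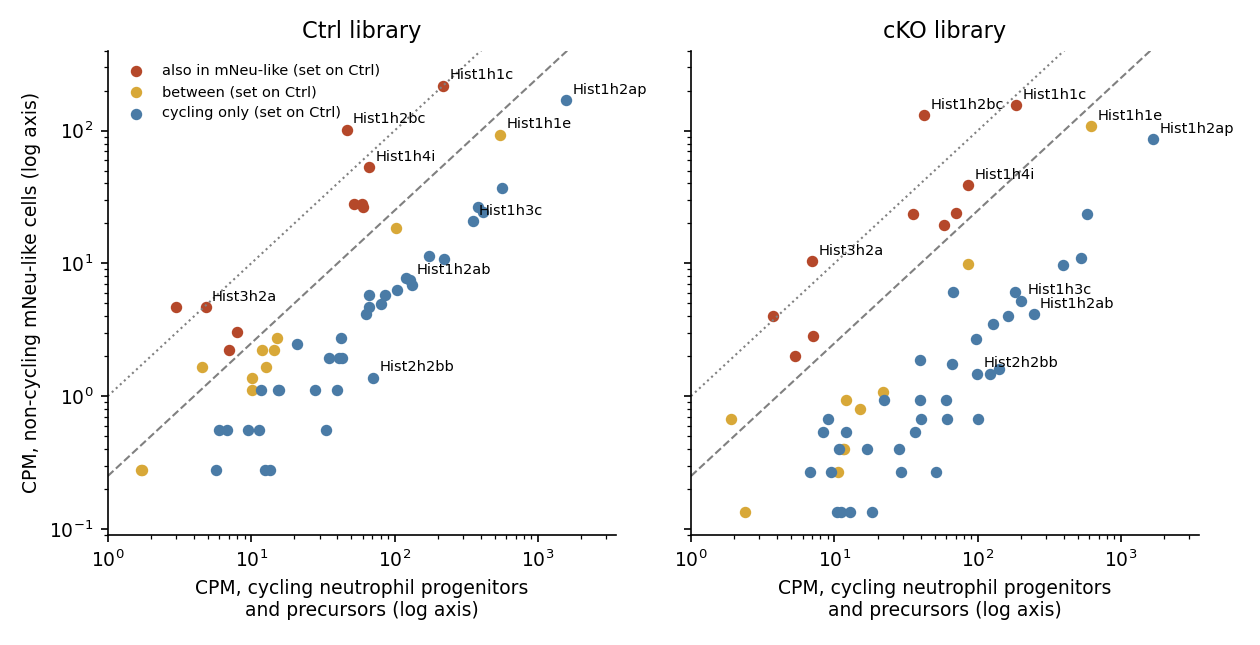
CPM of members in non-cycling mNeu-like cells (vertical) against CPM in cycling neutrophil progenitors and precursors (horizontal), both on log axes, for the Ctrl (left) and cKO (right) library. Colours give the class set on Ctrl, the dotted line marks equal CPM and the dashed line a ratio of 0.25. Members with too few UMIs to class, or with 0 UMIs on either axis, are not drawn. In both libraries the red members drawn lie on or above the dashed line, with Hist1h2bc above the dotted line. Hist2h3c2, also in that class, falls outside the horizontal axis, at 0.512 CPM in Ctrl and 0.678 CPM in cKO in the cycling cells.

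The groups also differed in their annotated 3′ ends. Of the 11 members also present in mNeu-like cells, 8 have over 200 annotated bases after the stop codon and 6 have a poly(A) signal near the end. Of the 38 cycling-only members, 8 have that length and 5 have the signal. The reach of the annotation differed as well, since 10 of the 11 but 25 of the 38 have at least 60 annotated bases after the stop codon. Its part in the contrast was not tested. The median annotated length after the stop codon was 742 bases in the first group, 200 bases in those between and 83.5 bases in the cycling-only group. Exceptions stand on both sides. Hist1h2bc itself has 742 annotated bases after the stop codon but neither a stem-loop in the first 100 bases nor a poly(A) signal near the annotated end. Hist1h4n and Hist1h4m, also present, have 80 and 52 annotated bases after the stop and no signal, whereas cycling-only Hist1h1d has 4931 and Hist4h4 has 2515. A stem-loop was found in at least 1 coding transcript of 9 of the 11 and of 26 of the 38, so it did not separate the groups. Among members with at least 60 annotated bases after the stop codon it was in 8 of 10 and 24 of 25.

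Along the neutrophil classes Hist1h2bc was lowest in imNeu-like and highest in mNeu-like cells. In Ctrl it stood at 50.7 CPM in cycling ProNeu-like, 40.3 in cycling PreNeu-like, 23.2 in non-cycling PreNeu-like, 11.98 in non-cycling imNeu-like and 102 in non-cycling mNeu-like cells. In cKO the same classes gave 37.8, 47.7, 33.9, 15.6 and 130.2 CPM. The level in mNeu-like over imNeu-like cells was thus 8.50-fold in Ctrl and 8.32-fold in cKO. The free-RNA genes differed much less between these classes, with Elane at 1.32-fold in Ctrl and 1.30-fold in cKO.

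Other members were higher in mNeu-like than in imNeu-like cells too, by less. Hist1h4i was 3.02-fold higher in mNeu-like than imNeu-like cells in Ctrl and 1.83-fold in cKO, and Hist1h2be 2.42-fold and 1.70-fold. Hist1h1c was 1.72-fold higher in Ctrl and 1.43-fold in cKO, where the value lay close to that of Elane. Hist1h4d went the other way, at 38.7 CPM in imNeu-like and 24.6 CPM in mNeu-like cells in Ctrl and at 53.2 and 23.6 CPM in cKO. In all, 5 of 16 members with at least 50 UMIs were past 1.5-fold higher in mNeu-like cells in Ctrl, against 20.5% of all genes, and 7 of 19 in cKO, against 21.1%. Lower past 1.5-fold were 1 of 16 in Ctrl, Hist1h4d, against 12.6% of all genes, and 3 of 19 in cKO, Hist1h4d, Hist1h1d and Hist1h4h, against 16.2%.

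**Figure D3:**
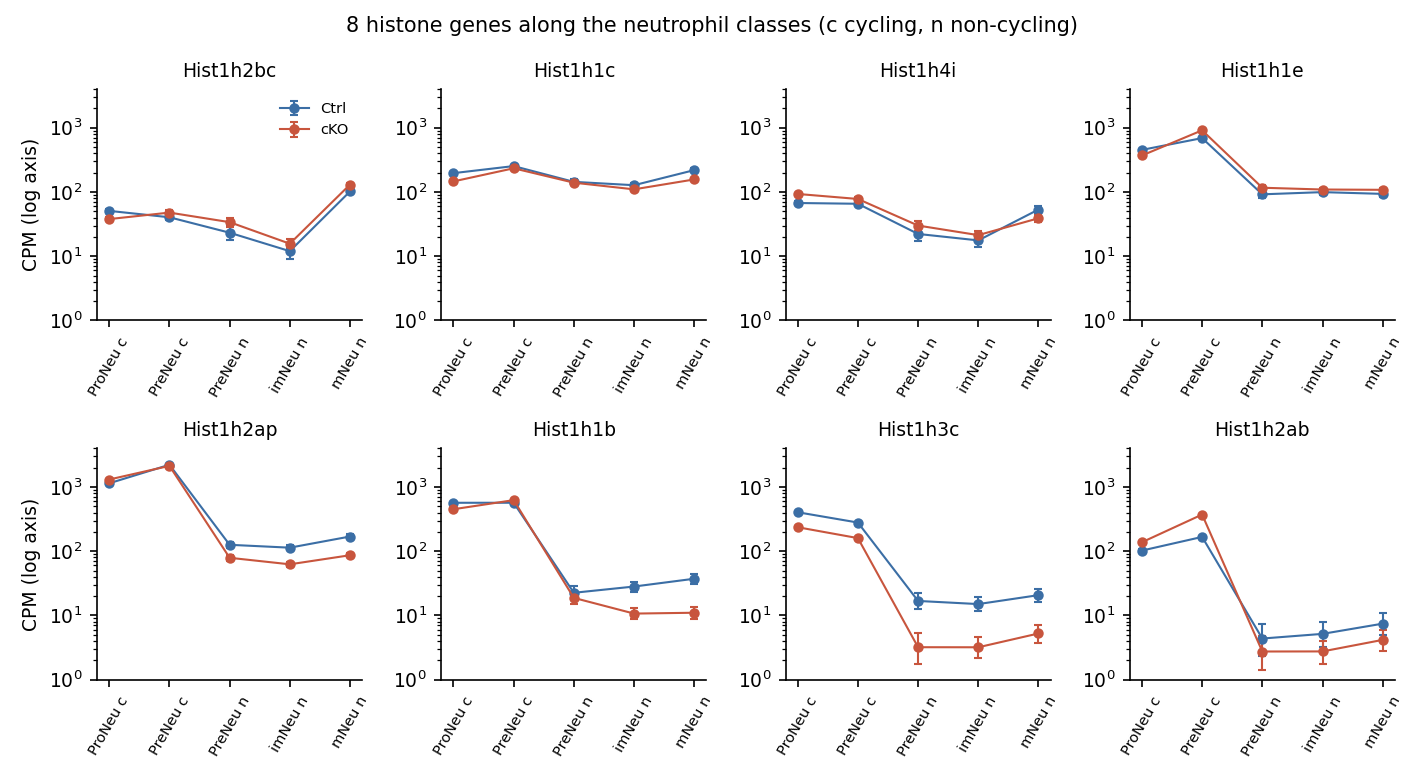
CPM (log axis) of 8 members in 5 neutrophil classes, in Ctrl (blue) and cKO (red), with 95% exact Poisson intervals; c marks cycling and n non-cycling cells. Hist1h2bc reaches 102 and 130.2 CPM in mNeu-like cells after 11.98 and 15.6 CPM in imNeu-like cells, while Hist1h2ap, Hist1h1b, Hist1h3c and Hist1h2ab are lower in every non-cycling than in every cycling class.

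The same UMIs were also read as the share of cells that held one, which is not independent of the CPM values. After thinning each cell to 1000 UMIs, Hist1h2bc had a UMI in 10.1% of non-cycling mNeu-like cells in Ctrl (95% exact binomial interval 8.53 to 11.9%) and 13.7% in cKO (11.7 to 15.8%). Intervals on shares of cells take the cells of 1 library as units and do not cover spread between mice. In imNeu-like cells the shares were 1.69% in Ctrl and 1.49% in cKO, and in T/NK-like cells of Ctrl, at a median depth of 3066 UMIs, 1.80% (0.219 to 6.36%). By CPM, non-cycling monocyte lineage-like cells also carried Hist1h2bc, at 67.0 CPM in Ctrl and 65.1 CPM in cKO. Non-cycling T/NK-like cells of Ctrl stood at 22.3 CPM on 9 UMIs. Before thinning, 19.6% of the mNeu-like cells in Ctrl, at a median of 2301 UMIs, and 41.8% in cKO, at 6090.5 UMIs, had a Hist1h2bc UMI. By contrast Hist1h3c had a thinned share of 2.45% in mNeu-like cells of Ctrl and 0.522% in cKO, and of 5.41% in T/NK-like cells of Ctrl (2.01 to 11.4%), so in Ctrl the mNeu-like share was not above that of T/NK-like cells. Cells of fewer UMIs than 1000 were left out, 83 and 19 of the mNeu-like cells.

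Non-cycling haematopoietic stem and multipotent progenitor (HSC/MPP)-like cells had fewer UMIs of most members than cycling ones, with an exception in Hist1h2ac. Past 1.5-fold, 33 of 39 members were lower and 2 higher in Ctrl, against 12.4% and 13% of all genes, and 22 of 27 were lower and 1 higher in cKO, against 14.9% and 13.5%. Hist1h2ac, an H2A gene, was higher in both libraries, at 405 CPM in Ctrl and 405 CPM in cKO, against 198 and 173 CPM in cycling HSC/MPP-like cells, and 130.5 and 106 CPM in cycling ProNeu-like and 18.5 and 9.94 CPM in non-cycling mNeu-like cells. Hist1h2bc, its divergent neighbour on chromosome 13, was at 178 CPM in non-cycling and 84.3 CPM in cycling HSC/MPP-like cells of Ctrl, but at a near parity of 102 and 96.5 CPM in cKO. Hist1h3d stayed near parity, at 80.5 and 73.6 CPM in Ctrl. In the same cells Hist1h3c was at 367 CPM in cycling and 18.8 CPM in non-cycling cells of Ctrl. The non-cycling HSC/MPP-like classes held 132 cells in Ctrl and 54 in cKO. Of all HSC/MPP-like cells, 86 of 425 in Ctrl and 24 of 116 in cKO lay near the cycling limit.

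Levels of members also differed between the dividing stages. In PreNeu-like over ProNeu-like cycling cells, 16 of 58 members were past 1.5-fold higher and 8 lower in Ctrl, against 12% and 52.3% of all genes, and 24 and 4 of 59 in cKO, against 12.1% and 52.5%. The median of all genes was -0.64 in Ctrl and -0.65 in cKO on the log2 scale, and that of the members 0.0047 and 0.36. Hist1h1a, which encodes linker histone H1.1, was at 126 CPM in cycling ProNeu-like and 27.9 CPM in cycling PreNeu-like cells of Ctrl, and at 91.7 and 26.2 CPM in cKO. Hist1h4a gave 57.1 and 18.5 CPM in Ctrl and 38.2 and 18.5 CPM in cKO. Hist1h2ap was higher in PreNeu-like cells, at 1139.7 against 2215 CPM in Ctrl and 1305 against 2127 CPM in cKO, and so was Hist1h1e, at 451 against 689 CPM in Ctrl and 369 against 910.5 CPM in cKO. The order of these 4 genes between the stages was the same in both libraries.

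Within cycling cells, clustered histone UMIs made up a larger share where G2/M genes were high. In ProNeu-like cells of Ctrl the share was 0.484% of UMIs where S genes exceeded G2/M genes (613 cells) and 0.731% where G2/M genes exceeded S genes (418 cells), and in cKO it was 0.472% and 0.652%. PreNeu-like cells gave 0.432% and 0.768% in Ctrl and 0.604% and 0.853% in cKO. HSC/MPP-like cells gave 0.325% and 1.10% in Ctrl and 0.447% and 1.58% in cKO. The HSC/MPP-like values rest on 196 cells with higher S genes and 96 with higher G2/M genes in Ctrl, and on 41 and 21 in cKO. The split says which gene list was higher, and DNA content was not measured. Hist1h4d, for example, stood at 195 CPM in S-rich and 482 CPM in G2/M-rich PreNeu-like cells of Ctrl. Hist1h4a ran the other way in both neutrophil classes, at 67.1 CPM in S-rich and 44.4 CPM in G2/M-rich ProNeu-like cells of Ctrl, 45.2 and 29.1 CPM in cKO, and 32.4 and 14.0 CPM in PreNeu-like cells of Ctrl, and 29.6 and 15.7 CPM in those of cKO. Hist1h4a was singled out after its values were seen.

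In cKO over Ctrl, the summed share of all members was higher in some classes and lower in others. Over all kept cells the log2 ratio of the share was -0.41, and it was 0.08 in cycling neutrophil progenitors and precursors together. Against the median gene these values became 0.064, with the sign turned, and 0.39, and the mean of per-cell shares gave -0.046 over all kept cells. The all-cell value also spans a different mix of classes in the 2 libraries. Cycling ProB-like cells, with a share of 1.40% in Ctrl, numbered 186 in Ctrl and 2 in cKO. Cycling erythroblast-like cells, with 1.25% in Ctrl, numbered 223 and 17. The part of this mix in the all-cell ratio was not tested. By class, the log2 ratio of the share was 0.40 in cycling HSC/MPP-like cells (293 cells in Ctrl, 62 in cKO), -0.10 in cycling ProNeu-like cells (1049 and 1144 cells), 0.22 in cycling PreNeu-like cells (1125 and 808 cells) and -0.47 in all mNeu-like cells (1490 and 1212 cells). Every one of these ratios is relative to all UMIs of the class. The median gene with at least 50 UMIs in each library itself moved by -0.04, -0.26 and -0.29 in the cycling HSC/MPP-like, ProNeu-like and PreNeu-like cells and by -0.40 in mNeu-like cells. Against that median gene the cycling PreNeu-like ratio became 0.51, the HSC/MPP-like ratio 0.44, the mNeu-like ratio -0.07, and the ProNeu-like ratio turned positive, at 0.16. The ProNeu-like ratio was also positive, at 0.10, without the 5% of cells with most UMIs, and the HSC/MPP-like ratio was 0.95 without the shared barcodes. Depth differed within classes as well. Cycling ProNeu-like cells had a median of 16500 UMIs in Ctrl and 3733.5 in cKO. Median depth was instead higher in cKO in cycling HSC/MPP-like cells, at 10899 and 17179 UMIs, and in cycling PreNeu-like cells, at 10090 and 16113. In these cycling classes the share was thus higher in the deeper library. In all mNeu-like cells it was lower there, at medians of 2235 UMIs in Ctrl and 5927 in cKO. The part of depth in the ratios beyond the alternatives above was not tested.

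Among the 12 most abundant members, Hist1h3c was lower and Hist1h2ab higher in cKO in 5 cycling classes, although other members differed by more in some of them and the sign of Hist1h3c in HSC/MPP-like cells depended on which cells were kept. Hist1h3c encodes an H3 and Hist1h2ab (chr13:23751126-23751598, plus strand) an H2A histone, and both are ordinary replication-dependent genes of the same chromosome 13 cluster. In cycling ProNeu-like cells Hist1h3c was at 404 CPM in Ctrl and 236 CPM in cKO, a log2 ratio of -0.77 (95% exact interval -0.83 to -0.72). In cycling PreNeu-like cells it was at 279 and 160 CPM (-0.80, -0.88 to -0.73), in cycling HSC/MPP-like cells at 367 and 297 CPM (-0.31, -0.49 to -0.13; 0.46 without the shared barcodes and 0.040 without the 5% of cells with most UMIs), in cycling monocyte lineage-like cells at 961 and 513 CPM, and in cycling MEP and early erythroid-like cells, the erythroid progenitors, at 355 and 154 CPM. Hist1h2ab was at 102 CPM in Ctrl and 138 CPM in cKO in ProNeu-like cells (0.43, 0.34 to 0.52), at 167 and 372 CPM in PreNeu-like cells (1.16, 1.08 to 1.23), at 177 and 391 CPM in HSC/MPP-like cells (1.14, 0.96 to 1.32), at 406 and 536 CPM in cycling monocyte lineage-like cells, and at 178 and 276 CPM in cycling MEP and early erythroid-like cells. The most abundant member, Hist1h2ap, was at -0.06 in PreNeu-like, 0.20 in ProNeu-like and 0.55 in HSC/MPP-like cells.

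In cycling PreNeu-like cells 13 of 59 members with at least 50 UMIs were past 1.5-fold higher in cKO, against 1.23% of all genes, and 1 was past 1.5-fold lower, against 20.8%. The median member was at 0.33 and the median of all genes at -0.32 on the log2 scale. After Hist1h2ab the highest were Hist3h2a, at 4.10 and 7.86 CPM, and the H2B gene Hist1h2bn, at 35.1 and 66.8 CPM. Hist1h4d, not among the 3 highest but abundant, was at 413 and 766 CPM (0.89). The lowest after Hist1h3c were Hist4h4, at 11.4 and 8.46 CPM, and Hist2h2aa1, at 68.5 and 51.3 CPM. Against the median gene 30 members were higher and 0 lower, but the matching shares of all genes after this scaling are not given here.

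In cycling HSC/MPP-like cells 16 of 41 members were past 1.5-fold higher in cKO and 1 lower, against 4.49% and 15.1% of all genes, with medians of 0.53 for members and -0.15 for all genes. The highest were the H2B genes Hist1h2bj, at 44.5 and 104 CPM, and Hist2h2bb, at 45.0 and 101 CPM, together with Hist1h2ab. The lowest were Hist2h2aa1, at 72.2 and 47.3 CPM, Hist1h3c, and Hist1h2ac at 198 and 173 CPM, whose log2 ratio of -0.19 was 0.0098 without the shared barcodes. These values rest on 62 cells in cKO.

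In cycling ProNeu-like cells 1 of 59 members was past 1.5-fold higher and 4 lower, against 1.56% and 18.8% of all genes, and the medians were -0.07 and -0.28. Against the median gene the split was 8 higher and 1 lower, again without matching shares of all genes. The highest were Hist1h2bk, at 4.85 and 7.49 CPM, Hist1h2bg, at 13.3 and 19.5 CPM, and Hist1h4i, at 67.3 and 93.02 CPM. The lowest were Hist2h2aa1, at 40.9 and 22.5 CPM, Hist1h3c, and Hist1h4m at 6.95 and 4.57 CPM. Hist2h2aa1 was thus lower in cKO in all 3 cycling classes, although 89.2% of its 60-base stretches also occur in transcripts of other genes.

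**Figure D4:**
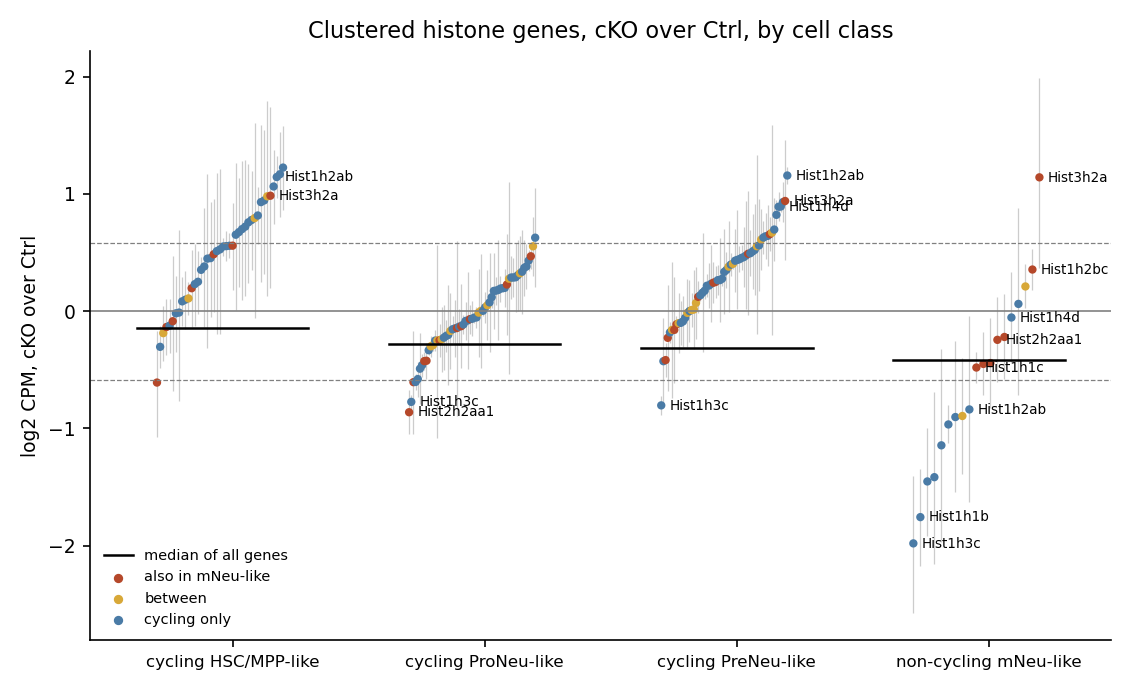
log2 ratio of CPM, cKO over Ctrl, of each member with at least 50 UMIs in 4 cell classes, in rising order, with 95% exact intervals for counting error; colours give the class set on Ctrl, dashed lines mark 1.5-fold and black lines the median of all genes. Hist1h3c is at -0.80 and Hist1h2ab at 1.16 in cycling PreNeu-like cells. In mNeu-like cells 15 of the 19 members lie below 0, as does the median of all genes, at -0.41, close to the member median of -0.48.

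In non-cycling mNeu-like cells the difference between libraries lay mostly in the cycling-only members. The 11 members between summed to 125 CPM in Ctrl and 123 CPM in cKO. The 38 cycling-only members summed to 376 CPM in Ctrl and 181 CPM in cKO, a log2 ratio of -1.06 (-1.17 to -0.95), which was -0.66 against the median gene. The 11 members also present summed to 472 and 413 CPM (-0.19, -0.28 to -0.11), and to 0.20 against the median gene. Beside this, the 4 progenitor granule genes were lower in cKO in the same cells, Elane at 332 and 164 CPM, Mpo at 494 and 148 CPM, Prtn3 at 266 and 134 CPM and Ctsg at 103 and 69.6 CPM. The part of free RNA in the lower sum of cycling-only members was not tested. Of the cells behind the Ctrl mNeu-like value, 224 of 1490 lay near the cycling limit, at 20 to 40 per 10000 UMIs, against 20 of 1212 in cKO.

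By gene, 1 of 19 members was past 1.5-fold higher in cKO in these cells and 9 were lower, against 2.64% and 33.7% of all genes. Scaled to the median gene, 3 were higher and 5 lower, and the matching shares of all genes are not given here. The lowest were Hist1h3c, at 20.7 and 5.24 CPM (-1.98), Hist1h1b, at 37.3 and 11.0 CPM (-1.76), and Hist1h2ae, at 26.5 and 9.67 CPM (-1.45). Higher in cKO were Hist3h2a, at 4.69 and 10.3 CPM on 17 and 77 UMIs (1.14, 0.37 to 1.99), Hist1h2bc (0.35, 0.18 to 0.53) and Hist1h1e, at 93.3 and 108 CPM (0.21, 0.02 to 0.40). Hist1h2ab, higher in the cycling classes, was at 7.45 and 4.17 CPM here, at or below the free-RNA level in both libraries.

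Summed by histone type, H2A genes held the largest share in cycling PreNeu-like cells of both libraries. In cycling PreNeu-like cells the 18 H2A genes held 44.4% of clustered histone UMIs in Ctrl and 41.3% in cKO, the 6 H1 genes 25.8% and 25.7%, the 13 H4 genes 11.9% and 14.6%, the 12 H3 genes 10.5% and 8.85%, and the 18 H2B genes 7.52% and 9.497%. In non-cycling mNeu-like cells the H1 genes led, with 37.6% in Ctrl and 39.4% in cKO, the H2B genes held 18.2% and 25.8%, most of it Hist1h2bc, and the H3 genes 5.72% and 2.76%.

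Few other genes of histone supply were past 1.5-fold in dividing cells, set against the shares of all genes given above. Of the replacement histone genes, 0 of 10 in cycling HSC/MPP-like, 0 of 10 in ProNeu-like and 1 of 9 in PreNeu-like cells were past 1.5-fold higher in cKO, and 0, 1 and 0 were lower. H2afz, encoding H2A.Z, was at 2544 and 2730 CPM in PreNeu-like cells and H3f3b, encoding H3.3, at 993 and 911 CPM. Of the genes for histone mRNA transcription and processing, 13 had enough UMIs in each of these classes, of which 0 were past 1.5-fold higher and 1, 2 and 2 lower. Npat, the cyclin E-dependent activator of histone transcription, was at 36.8 and 19.3 CPM in ProNeu-like and 17.6 and 11.9 CPM in PreNeu-like cells, while Slbp was at 132 and 123 CPM and at 158 and 153 CPM. None of the 7 histone chaperone genes passed 1.5-fold in a cycling class, and the assembly factor gene Nasp was at 86.4 and 64.2 CPM in PreNeu-like cells. In non-cycling mNeu-like cells 2 of 8 replacement histone genes, 2 of 7 processing genes and 3 of 3 chaperone genes were past 1.5-fold lower. The share of all genes past that limit there was 33.7%. Slbp, 1 of the 2 processing genes, was at 48.8 and 26.5 CPM. In the same cells H3f3a, also encoding H3.3, was at 1862 and 2288 CPM.

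The promoters of the members, 250 bases before to 50 bases after the start (RefSeq, GRCm38.p6), could be matched for 62 of 67 by gene identifier. CCAAT in either orientation, read as CCAAT or ATTGG, was in 53 of 62, against 37.3% of 32788 other promoters, with all 18 H2A and all 16 H2B promoters but 3 of 12 H4 promoters among them, and TATAAA, read in the direction of the gene, was in 30, against 8.24%. The octamer ATTTGCAT or its reverse ATGCAAAT was in 13 of 62, against 1.70%, and all 13 were H2A or H2B genes, 7 of 18 and 6 of 16. It was in 1 of 10 promoters of members also present in mNeu-like cells and in 7 of 36 of the cycling-only members. Such matches describe the letters in this window and say nothing of binding.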

How the data were processed

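Single-cell 3′ RNA-seq libraries of bone marrow, 1 Ctrl and 1 cKO, were deposited by the authors as matrices of UMI counts per gene and barcode. The submitters' processing notes name Cell Ranger 5.0.0 and mm10; the annotation release and the treatment of reads shared by several genes are not given in the sources used here. The libraries held 71527701 and 64393950 UMIs over 10220 and 6872 barcodes. Barcodes were kept if they had 200 to 9000 detected genes and no more than 30% of UMIs from mitochondrial genes. Doublets were not removed (an alternative left out the deepest 5% of cells). The members and lists were chosen with earlier results of these data known.

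Counts were summed per library and class. Log counts of the marker lists were scaled over all cells and averaged; a cell took the class with the highest mean if it was at least 0.5 SD and at least 3 markers were detected. CPM was UMIs per 1000000 UMIs of the class, with no scaling by length. Shares and ratios have exact binomial and levels exact Poisson 95% intervals, and ratios needed 50 UMIs over both libraries. Named members were the 12 with most UMIs, the 8 highest and 8 lowest by mNeu-like over cycling CPM in Ctrl with at least 50 UMIs, and per class the 3 highest and 3 lowest cKO over Ctrl ratios; others are given as members of a group or as comparisons. 1 listed processing gene was not analysed here. 3′ ends, shared 60-base stretches and proteins came from GENCODE vM21 transcripts, which hold 32158 of the 32285 listed gene identifiers. In sums for cycling PreNeu-like cells simulated with Poisson counting error alone, over 9222 genes, 95.6% of intervals held the true value. Spread between cells or mice was not simulated, so this checks the computation only. Python 3.11.15, NumPy 2.4.6, SciPy 1.17.1, pandas 2.3.3 and Matplotlib 3.10.9 were used.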

Additional observations from a re-analysis of the deposited data

Results flagged for a closer look

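The share of clustered histone UMIs, relative to all UMIs, was higher in cKO in some cell classes and lower in others. The log2 ratio of cKO over Ctrl was 0.40 in cycling HSC/MPP-like and 0.22 in cycling PreNeu-like cells, and -0.10 in cycling ProNeu-like and -0.47 in mNeu-like cells. Against the median gene the same classes gave 0.44, 0.51, 0.16 and -0.067, and the ProNeu-like ratio was 0.10 without the 5% of cells with most UMIs. Hist1h2ab was also higher in some classes, at 1.14 in cycling HSC/MPP-like and 1.16 in cycling PreNeu-like cells. It was lower in another, at -0.84 in non-cycling mNeu-like cells, where it rested on 27 UMIs in Ctrl and 31 in cKO. There it was a cycling-only member in both libraries, at or below the free-RNA level, and the median gene moved by -0.39. Median depth per cell also differed between the libraries in each of these classes, and its part was not tested. With 1 library per condition these differences between classes were not tested.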

How the results depend on the processing

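No paired analysis was possible with 1 library per condition, and no result comes from a test. Against the median gene (median-of-ratios scaling) the all-cell log2 ratio of the share, reported as -0.41, reversed to 0.064, the ratio in cycling neutrophil progenitors and precursors, reported as 0.08, became 0.39, and that in mNeu-like cells, reported as -0.47, became -0.067. For all kept cells the ratio moved to -0.42 with at least 1000 UMIs per cell, -0.45 with at least 2000, -0.45 without mitochondrial and ribosomal protein genes in the denominator, -0.046 as the mean of per-cell shares, -0.43 in cells that passed the stricter gate, -0.52 without members whose protein is identical to another's, -0.38 without the deepest 5% of cells, and -0.44 without barcodes found in both libraries, an alternative chosen after seeing the data. For cycling neutrophil progenitors and precursors it moved to 0.091, 0.034, 0.10, 0.038 and 0.24 under the denominator, per-cell mean, stricter gate, identical-protein and deepest-cell alternatives, and to 0.037 with cycling called from S genes alone. For mNeu-like cells it moved to -0.33 with at least 2000 UMIs and to -0.40 without members of identical protein. The count of 11 members also present in mNeu-like cells was 9 to 12 under the other alternatives and 3 without members of identical protein, which removes 8 of the 11 by construction. The cause of the other shifts was not tested. Of 222 recomputed ratios of the named members, 218 kept their sign, 194 stayed within their counting interval and 28 moved outside it. The named ratios were the 3 highest and 3 lowest per class in these same data, so a kept sign says little about them. Median-of-ratios scaling moved 10 outside the interval, leaving out shared barcodes 7 and leaving out the deepest 5% of cells 6. The mean of per-cell shares moved 4 and the limit of 2000 UMIs moved 1. The 4 that changed sign were Hist1h3c, given above, and Hist1h2ac, both in cycling HSC/MPP-like cells, Hist1h2ac to 0.027 as the mean of per-cell shares and to 0.0098 without the shared barcodes. Intervals cover counting error only, and variation between mice was not measured. The capture design targets poly(A) tails, and whether any molecule without one was counted was not tested.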
